A study of Mus musculus with 9 samples.

Results

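The heat shock and DnaJ chaperone families were taken as every gene of the deposited matrix whose symbol starts with Hsp90, Hspa, Hspb, Hspd, Hspe, Hsph or Dnaj, a rule that uses no measured value. It gave 74 of the 23420 genes: 3 Hsp90 genes, 13 Hspa (HSP70) genes, 10 Hspb genes, 1 each of Hspd, Hspe and Hsph, 4 Dnaja, 13 Dnajb and 28 Dnajc genes. Of the 10 Hspb symbols, at least Hspbap1 and Hspbp1 match the rule by spelling only and encode binding partners, not small heat shock proteins. Of the 74 members, 67 passed the filter on low counts and were tested, and 6 of these averaged under 1 CPM (counts scaled to a common library size) in at least 1 genotype. The other 7, Dnajb8, Dnajb13, Dnajc5b, Dnajc5g, Dnajc6, Dnajc22 and Hspb3, did not pass it, and Dnajc5b and Dnajc5g had a count of 0 in all 9 libraries.

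Chaperones hold unfolded or partly folded proteins and help them reach or regain their shape. HSP70 proteins bind short exposed stretches of a client in a cycle driven by ATP. DnaJ proteins deliver the client and start ATP hydrolysis, exchange factors of the Hsph and Hspa4 type reset the cycle, HSP90 finishes the folding of kinases and receptors, and small heat shock proteins hold unfolded protein without using ATP. The endoplasmic reticulum and the mitochondrion have chaperones of their own, and cells exposed to heat or unfolded protein induce many cytosolic members through heat shock factor 1 and many endoplasmic reticulum members through the unfolded protein response. Brain endothelial cells line the cerebral vessels and form the blood-brain barrier.

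Levels were measured in 9 bulk RNA libraries of cells sorted from brain homogenates as CD31-positive and CD45-negative, 20000 cells each, from 6-month-old C57BL/6 mice labelled male, 1 mouse per library. The 3 genotypes were WT, APP/PS1 and APP/PS1xRIPK1KD, with 3 libraries each. APP/PS1 mice carry mutant transgenes of the amyloid precursor protein and presenilin 1 and deposit amyloid in the brain. The third genotype adds to the same transgenes an alteration of Ripk1, a kinase of tumour necrosis factor receptor signalling. Neither the meaning of KD nor the promoters of the transgenes are given in the sources used here, and no library carries the Ripk1 alteration without the transgenes. The design gives 3 comparisons, and each genotype serves in 2 of them.

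Total expected counts ranged from 16263792 (APP/PS1 replicate 1) to 52413200 (APP/PS1 replicate 3), at which 3 counts stand for 0.189 and 0.0596 CPM. The endothelial markers were high in all libraries: Cldn5 lay between 5600 and 8460 CPM and Pecam1 (CD31) between 976 and 1230 CPM. Ptprc, which encodes the sort marker CD45, did not exceed 0.918 CPM. The sum of 8 microglia and leukocyte markers, Ptprc among them, was 19.8, 33.8 and 360 CPM in WT. It ranged from 15.3 to 48.9 CPM in APP/PS1 and from 19.7 to 36.2 CPM in APP/PS1xRIPK1KD. Cd74 alone stood at 356 CPM in WT replicate 3, and C1qb reached 13.5 CPM in APP/PS1xRIPK1KD replicate 2. The part of this in the chaperone values was not tested. The labelled sex did not match 6 libraries. Replicates 1 and 2 of each genotype had 264 to 534 CPM of Xist, the RNA of the inactive X chromosome, and at most 0.434 CPM of summed Y-linked transcripts, whereas the replicates 3 had at most 4.78 CPM of Xist and 150 to 185 CPM of Y-linked transcripts. The split is balanced over genotypes, and counts are also given for replicates 1 and 2 alone. Other properties of the libraries moved with genotype. The sum of 15 mural cell markers (pericytes and smooth muscle) ranged from 16.2 to 71.7 CPM in WT, 216 to 285 CPM in APP/PS1 and 75.3 to 330 CPM in APP/PS1xRIPK1KD, with none of the 15 at 0 in every library of a genotype. The sum of 6 fibroblast markers ranged from 0.132 to 1.24, 6.82 to 13.4 and 2.06 to 7.26 CPM, with Lum at 0 throughout. The ribosomal RNA precursor Rn45s took 29.6 to 33.8% of counts in WT, 15.8 to 28.6% in APP/PS1 and 20.2 to 26.4% in APP/PS1xRIPK1KD. The sum of 5 choroid plexus markers ranged from 41.5 to 68.3 CPM in WT, 53.1 to 144 CPM in APP/PS1 and 172 to 306 CPM in APP/PS1xRIPK1KD, which lay above all 6 other libraries, with none of the 5 at 0 throughout. The part of these in the chaperone values was not tested, beyond a fit without Rn45s.

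Promoter sequence of 7 members is shown because their levels are compared below and their windows hold letters known as binding motifs of these 2 stress programs. Heat shock factor binds inverted repeats of a short unit, so windows of 250 bases before each transcription start in the RefSeq table of GRCm38.p6 were searched on both strands for a pair of units (GAANNTTC or TTCNNGAA) and for 3 units in a row (GAANNTTCNNGAA or TTCNNGAANNTTC, which contain 2 pairs each). The endoplasmic reticulum stress element was searched as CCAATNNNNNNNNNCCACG, or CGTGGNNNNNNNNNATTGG on the other strand. Of the 74 members, 60 had 1 or more windows, 77 windows in all. The remaining 14, among them Hsp90aa1, Hspa8 and Hsp90ab1, had none in the table and were not searched. In the first 4 sequences, capitals mark the heat shock units, and all are written 5′ to 3′ along the gene.
Hspe1 (GRCm38.p6, chr1:55088053-55088082, plus strand): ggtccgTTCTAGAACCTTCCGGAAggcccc
Hsph1 (GRCm38.p6, chr5:149636351-149636380, minus strand): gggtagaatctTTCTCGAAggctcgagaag
Hspa1a (GRCm38.p6, chr17:34972213-34972300, minus strand): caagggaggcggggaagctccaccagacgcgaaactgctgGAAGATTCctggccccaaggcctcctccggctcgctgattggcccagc
Hspb1 (GRCm38.p6, chr5:135887762-135887869, plus strand): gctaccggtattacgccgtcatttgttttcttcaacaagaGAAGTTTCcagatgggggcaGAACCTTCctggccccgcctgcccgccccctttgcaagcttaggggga

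In the next 3 sequences, shown for the endoplasmic reticulum chaperones, capitals mark the stress element.
Hspa5 (GRCm38.p6, chr2:34772020-34772048, plus strand): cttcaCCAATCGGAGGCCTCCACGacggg
Hsp90b1 (GRCm38.p6, chr10:86705528-86705556, minus strand): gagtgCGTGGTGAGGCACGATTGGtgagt
Dnajc3 (GRCm38.p6, chr14:118937787-118937885, plus strand): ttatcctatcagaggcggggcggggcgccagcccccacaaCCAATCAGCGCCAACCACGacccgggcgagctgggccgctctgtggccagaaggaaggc

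Runs of 3 units were found in 4 of the 77 member windows (5.19%), belonging to Hspd1, Hspe1 and Dnajb6, against 153 of 32851 windows of all genes (0.466%). Hspd1 and Hspe1, the ring and the lid of the mitochondrial chaperonin, lie head to head on chromosome 1 and share the same element, which holds 2 overlapping runs of 3 units, 72 to 89 bases before the start of Hspe1. A pair of units was found in 16 member windows (20.8%) of 14 genes, among them Hspa1a, Hspa1b, Hspb1, Hsph1, Dnaja1 and Dnajb4, against 12.8% of all windows, so the pair is a common string. Dnajb1 and Hspa4l were searched and had neither a pair nor a run. The endoplasmic reticulum element was found in 3 member windows (3.9%), those of Hspa5, Hsp90b1 and Dnajc3, against 37 of all windows (0.113%). A match is a description of these letters and does not show that a factor binds there. The starts are those of RefSeq. By GENCODE M21, the stretch shown for Hspa5 lies within the gene and that for Hsph1 mostly within it. The stretch shown for Hspe1 lies before Hspe1 but within Hspd1, which spans 55077835 to 55088243 on the minus strand. For Dnajc3, the bases just after the start were not found in a GENCODE transcript of the gene.

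The members differed widely in level. Per kilobase of exon, the small heat shock protein Hspb1 was the most abundant at 939 ± 236 CPM per kb (SD, n = 9 libraries), followed by Hspa8, an HSP70 abundant also in unstressed cells, at 535 ± 144 and the constitutive HSP90 Hsp90ab1 at 420 ± 86.6 CPM per kb. The intervals of 1 SD meet between Hspa8 and Hsp90ab1 but not between Hspb1 and Hspa8. This order depends on the length, the union of all annotated exons, which is 1031 bases for Hspb1 and 4301 for Hspa8. In CPM not divided by length, Hspa8 (mean 2300) and Hsp90ab1 (1260) lay above Hspb1 (968). A gap separated them from the endoplasmic reticulum pair Hsp90b1 at 127 ± 17.1 and Hspa5 at 111 ± 20.3 CPM per kb, the inducible HSP90 Hsp90aa1 at 90.9 ± 27.9, the small heat shock protein Hspb8 at 68.9 ± 7.92 and the inducible HSP70 Hspa1a at 67.3 ± 34.5 CPM per kb. Those 5 also meet their neighbours within 1 SD. The order is that of the mean over genotypes: in the WT libraries Hspb8, at 68.7 to 79.5 CPM per kb, lay above Hsp90aa1 at 59.4 to 66.3, and Hspa1a, at 37 to 48.9, lay in the range of Dnajb9 (31.7 to 49), Dnajc8 (37.1 to 42.2) and Hspa12b (38.3 to 42.3 CPM per kb). Hspa1a and Hspa8 lie on chromosomes 17 (34969190 to 34972156) and 9 (40800984 to 40810087), and Hspb1 on chromosome 5 (135887919 to 135889563), all protein-coding genes of GENCODE M21. The 8 members with the highest CPM, which are these with Dnaja1 in place of Hspb8, held 67.4 to 76.8% of all member counts in a library.

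**Figure D1:**
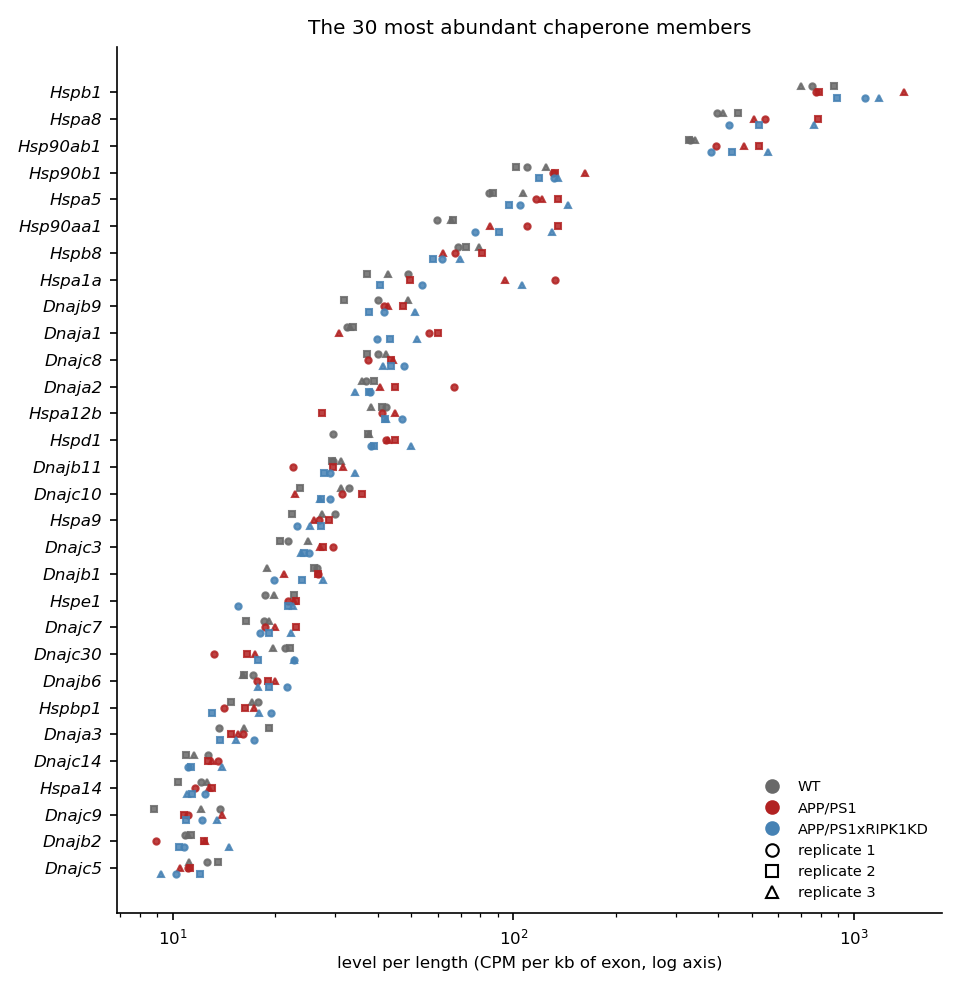
Level per length (CPM per kb of exon, log axis) of the 30 most abundant members, each point 1 library, colour for genotype and shape for replicate. Hspb1, Hspa8 and Hsp90ab1 stand above all others, and the points of Hspa1a spread more widely than those of the members around it.

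Most members varied little among the 9 libraries. Of the 55 members that averaged at least 5 CPM, 39 differed by less than 2-fold between their highest and lowest library, and the median ratio was 1.7. The steadiest were Dnajc4 and Hspa14, each with a ratio of 1.26. The most variable was Hspa4l, an exchange factor of the Hsp110 type, with a ratio of 4.97 (5.93 CPM in WT replicate 2 and 29.5 CPM in APP/PS1 replicate 2). It was followed by the cytosolic DnaJ protein Dnaja4 with 4.21, Dnajc16 with 3.88 and Hspa1a with 3.57. All members together took 0.649, 0.681 and 0.724% of counts in the WT libraries, 0.905, 1.23 and 0.918% in APP/PS1 and 0.849, 0.942 and 1.22% in APP/PS1xRIPK1KD, so each WT library lay below the other 6. Rn45s is part of the same total. APP/PS1 replicate 2 and APP/PS1xRIPK1KD replicate 3 were the highest.

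In APP/PS1 against WT, no chaperone passed the FDR threshold of 0.05 in edgeR. A list of 12 stress-inducible chaperones held Hspa1a, Hspa1b, Hsph1, Dnajb1, Hspb1, Hsp90aa1, Hspa8, Dnaja1, Dnajb4, Hspa4l and the mitochondrial Hspd1 and Hspe1; Hspa8 is counted in it, not among the constitutive members. In it, 12 of 12 log2 fold changes were above 0, as were 50.2% over the 13317 genes tested, with a median of 0.63 against 0.00. At an unadjusted p under 0.05 the count was 9 of 12, and 6 to 8 when 1 library was left out, where 3.49% of all genes were higher. For 6 of the 12 every APP/PS1 library lay above every WT library, where 5.43% of all tested genes did, and the other 6 overlapped WT. The list was drawn up with earlier results of these data known, so its direction is a description. With replicates 1 and 2 alone, 11 of the 12 were above 0 and the median was 0.83. Beside these chaperones, 16 immediate early genes, induced rapidly by many stimuli, were followed as a list. In APP/PS1 against WT, 14 of 16 had a log2 fold change above 0 (median 0.48) and 7 were higher at an unadjusted p under 0.05, while edgeR called 0 of 16. In APP/PS1xRIPK1KD against APP/PS1, which shares the APP/PS1 libraries, 15 of 16 were below 0 (median -0.57) and 8 were lower at an unadjusted p under 0.05, where 2.34% of all genes were; in APP/PS1xRIPK1KD against WT, 6 were above 0 and the median was -0.05. The part of these genes' differences in the chaperone values was not tested.

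Hspa4l, which helps HSP70 release its client, stood at 10.5, 5.93 and 9.2 CPM in WT and at 25.5, 29.5 and 12 CPM in APP/PS1. The genotypes did not overlap, although APP/PS1 replicate 3 lay close to WT. The difference was 2.6-fold (log2 fold change 1.38 ± 0.344 SE, edgeR adjusted p = 0.707), and DESeq2 called it (1.39, adjusted p = 0.0421). Hsp90aa1, the HSP90 that heat induces, stood at 234, 261 and 258 CPM in WT and at 430, 531 and 335 CPM in APP/PS1. All 3 APP/PS1 libraries lay above WT, by 1.72-fold on average (0.79 ± 0.199 SE, edgeR adjusted p = 0.707; DESeq2 adjusted p = 0.0311). Hsph1, the larger HSP110 exchange factor, stood at 31.4, 37.2 and 34.4 CPM against 55.4, 67.5 and 44.4 CPM. It did not overlap either, and the log2 fold change was 0.70 ± 0.227 SE (edgeR adjusted p = 0.787).

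The inducible HSP70 gene Hspa1a stood at 145, 110 and 127 CPM in WT and at 392, 147 and 281 CPM in APP/PS1. The lowest APP/PS1 library, replicate 2, lay just above the highest WT library, and the other 2 lay far above (log2 fold change 1.10 ± 0.395 SE, edgeR adjusted p = 0.787). Leaving out APP/PS1 replicate 1 gave 0.75, and leaving out APP/PS1 replicate 2 gave 1.40. Its near-identical copy Hspa1b took 2.8 to 5.56% of the sum of both, and how RSEM shared reads between the copies is uncertain; the sum as 1 gene also gave 1.10 ± 0.391 SE. Hspa8, which folds new proteins and uncoats clathrin vesicles, stood at 1700, 1960 and 1770 CPM in WT and at 2350, 3360 and 2180 CPM in APP/PS1, without overlap (0.54 ± 0.206 SE, edgeR adjusted p = 0.787). Hspd1, the ring of the mitochondrial chaperonin, also did not overlap (77.9, 98.8 and 99.4 CPM against 112, 119 and 113 CPM), while its partner Hspe1 did (27.5, 33.4 and 29.2 CPM against 32.1, 34 and 33.5 CPM).

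Other inducible members overlapped between WT and APP/PS1. Dnajb1, the DnaJ partner of inducible HSP70 and a common readout of heat shock factor 1, stood at 85.1, 83.5 and 60.5 CPM in WT and at 85.5, 85.3 and 67.9 CPM in APP/PS1, with overlapping libraries (0.06 ± 0.175 SE). Dnaja1, the farnesylated DnaJ partner of Hspa8, stood at 280, 292 and 285 CPM in WT and at 487, 519 and 266 CPM in APP/PS1: replicates 1 and 2 were high and replicate 3 was below every WT library. Dnajb4 showed a like arrangement, with 31.2, 35 and 18.9 CPM against 16.2 to 19.1 CPM in WT. Hspb1 had 1 high library, APP/PS1 replicate 3 at 1450 CPM, beside 799 and 813 CPM in the other 2 and 721 to 903 CPM in WT. The APP/PS1 library with the highest value was replicate 1 for Hspa1a, replicate 2 for Hsp90aa1 and replicate 3 for Hspb1. Over the 9 libraries, 6 of the 12 members of the list were highest in APP/PS1 replicate 2.

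**Figure D2:**
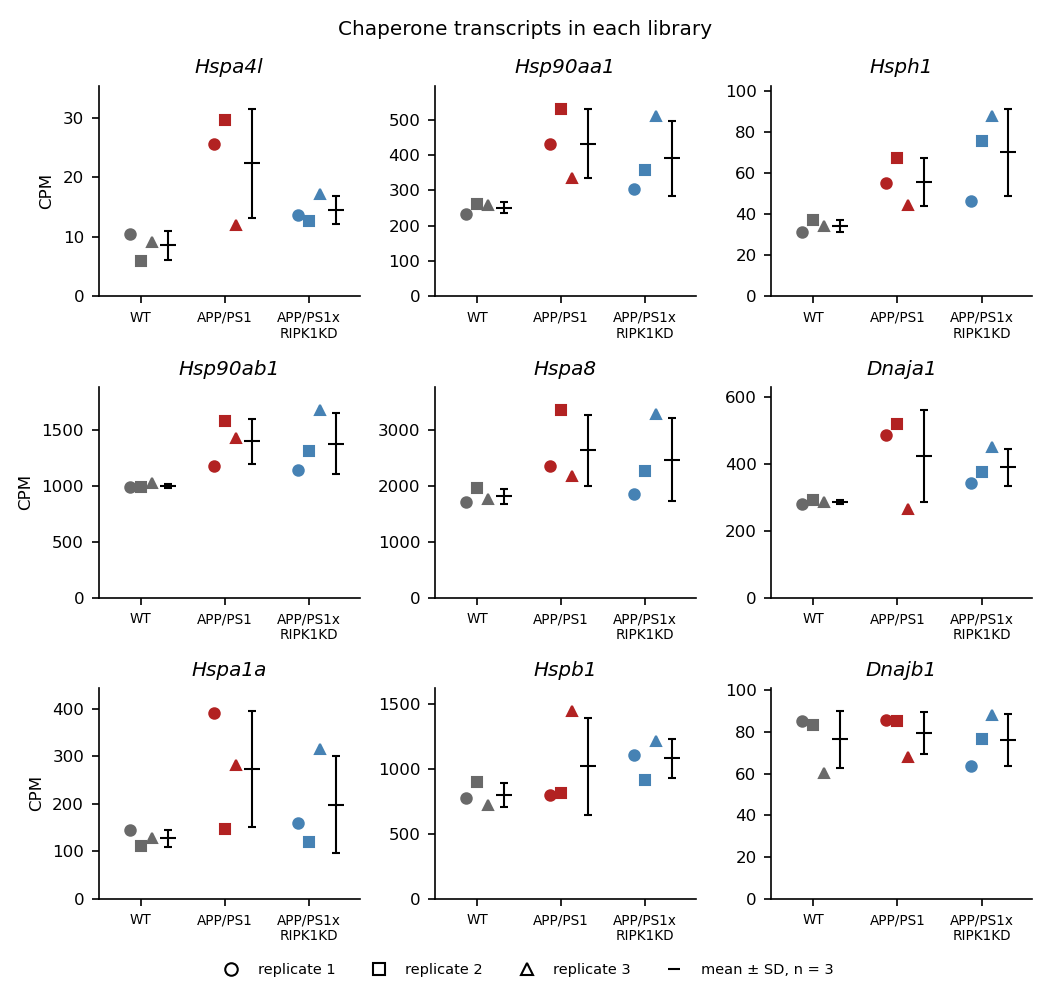
CPM of 9 members in each library (linear axes from 0), points for libraries and the black bar for the mean ± SD of 3. The WT points are tight for Hsp90ab1 and Dnaja1, APP/PS1 replicate 3 falls to the WT level for Dnaja1, and Dnajb1 overlaps in all genotypes.

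Among constitutive cytosolic chaperones, 12 of 16 tested members had a log2 fold change above 0 in APP/PS1 against WT, with a median of 0.08. Hsp90ab1, the HSP90 present in unstressed cells, stood at 988, 986 and 1020 CPM in WT and at 1180, 1580 and 1430 CPM in APP/PS1. Its WT libraries were the tightest of the abundant members, with an SD of 17.5 CPM on a mean of 997, and the genotypes did not overlap (0.49 ± 0.152 SE, edgeR adjusted p = 0.787). Hspa4, another exchange factor, overlapped (36.1, 40.5 and 54.2 CPM against 63.3, 50.6 and 62.3 CPM). Dnaja2, a relative of Dnaja1, did not, at 110, 116 and 107 CPM against 199, 134 and 121 CPM. Hspa2, best known from the testis, was low and rested on 1 library: 2.16 to 2.42 CPM in WT and 1.76, 12.6 and 4.77 CPM in APP/PS1.

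Endoplasmic reticulum chaperones split into a few members above WT and many at the WT level. The log2 fold change was above 0 for 9 of 13, with a median of 0.12 that became -0.02 without WT replicate 2. Hspa5 (BiP), the HSP70 of that compartment, stood at 358, 369 and 451 CPM in WT and at 493, 570 and 512 CPM in APP/PS1 (0.42 ± 0.16 SE). Hsp90b1, its HSP90, stood at 442, 411 and 504 CPM against 526, 535 and 652 CPM (0.34 ± 0.13 SE). Dnajc3, a DnaJ partner of BiP, stood at 112, 106 and 128 CPM against 152, 142 and 139 CPM (0.33 ± 0.119 SE). These were the 3 of the 13 whose libraries did not overlap, where 5.43% of all genes were higher without overlap; their edgeR adjusted p-values were 0.787, 0.793 and 0.787. At an unadjusted p under 0.05 the count was 3 of 13, where 3.49% of all genes were higher, and 0 of 13 without WT replicate 1 or without WT replicate 2. Dnajb9 and Dnajb11, DnaJ proteins that the unfolded protein response also induces, overlapped (80.9 to 125 CPM against 106 to 121 CPM, and 95 to 101 CPM against 73 to 102 CPM).

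Mitochondrial members were centred on 0, with a median of 0.00 over 9 genes and 4 of the 9 below it. Hspa9, the HSP70 that pulls proteins into the matrix, stood at 129, 96.7 and 118 CPM in WT and at 116, 124 and 112 CPM in APP/PS1. The DnaJ protein Dnajc30 was lower in APP/PS1 in every library, at 22, 27.5 and 28.9 CPM against 35.5, 36.6 and 32.8 CPM (-0.42 ± 0.178 SE, edgeR adjusted p = 0.795). Dnajc19, a subunit of the motor that imports proteins across the inner membrane, was the other member whose libraries lay wholly below WT. It stood at 19.5, 20.5 and 22.6 CPM against 22.7, 26.3 and 25.5 CPM, nearly touching (-0.25 ± 0.197 SE, edgeR adjusted p = 0.907). These were 2 of the 67 tested members, where 5.44% of all genes were lower without overlap, so their number does not exceed the background. Of the Hspb genes other than Hspb1, Hspb8, which works with the co-chaperone Bag3, overlapped (134, 142 and 155 CPM against 131, 158 and 121 CPM). Hspb6 did too, at 1.26 to 3.77 CPM against 2.86 to 3.69 CPM. Hspb7 did not exceed 1.35 CPM in any library. Hspa12b, a divergent HSP70 known from endothelial cells, stood at 141 to 156 CPM in WT and at 152, 101 and 165 CPM in APP/PS1.

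Over all members, 0 of 67 were called in APP/PS1 against WT in edgeR, where 3 genes, 0.0225% of those tested, were called. At an unadjusted p under 0.05, edgeR counted 16 members higher and 1 lower, 25.4% of the 67 against 6.14% of all tested genes (3.49% higher and 2.65% lower). The 16 became 8 without WT replicate 1 and 10 without WT replicate 2. The libraries of 13 members did not overlap with APP/PS1 higher, against 5.43% of all tested genes, and those of 2 did not overlap with APP/PS1 lower, against 5.44%. DESeq2 called 2 members, Hspa4l and Hsp90aa1, among 45 genes in all (0.34%). DESeq2 without the filter on low counts called the same 2 among 75 genes (0.529%), and limma-voom called 0 members where 0.015% of genes were called. With replicates 1 and 2 alone the call count was again 0, with 14 higher and 1 lower at an unadjusted p under 0.05, where 11.1% of all genes reached it. In the authors' deposited table, 64 members were listed and 0 had an FDR at or under 0.05; 12 had an unadjusted p under 0.05, all higher, 18.8% of the 64 against 6.31% of the 12460 genes. That table gave Hsp90aa1 a log2 fold change of 0.67 (authors' FDR 0.198) and Hspa4l 1.07 (authors' FDR 0.198). The same authors' deposited table gave Hspa8 0.23 (authors' p 0.269, FDR 0.966), a smaller difference than the 0.54 of the edgeR fit here. In bulk RNA, a change in the share of a cell type and a change in RNA per cell cannot be told apart.

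**Figure D3:**
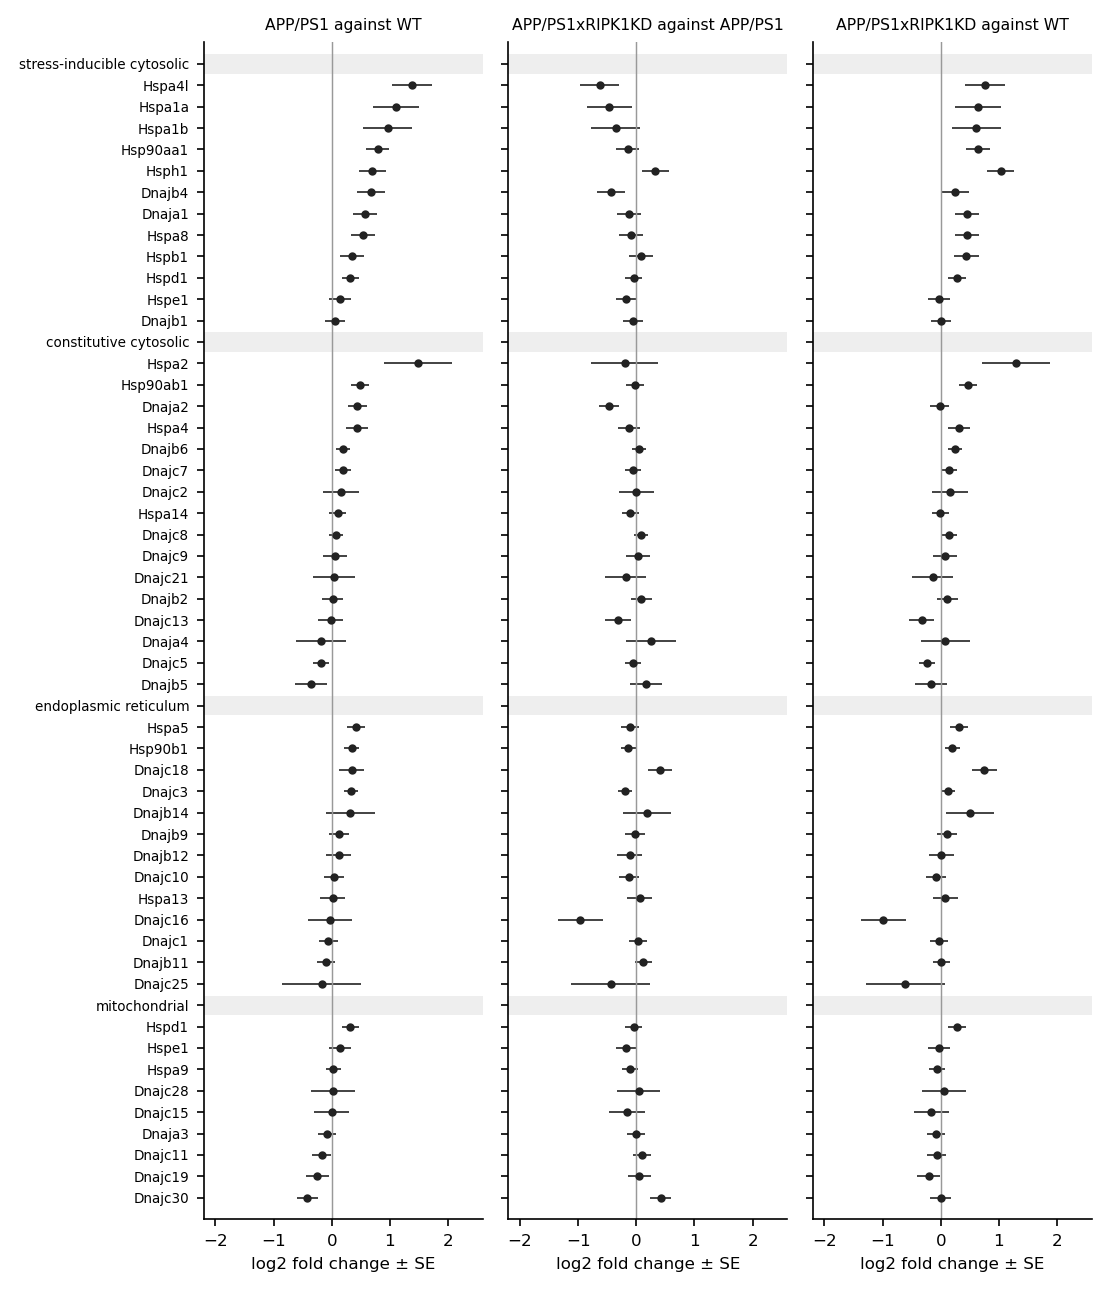
Log2 fold change ± SE from edgeR for the tested members of 4 lists (Hspd1 and Hspe1 stand in 2 of them) in the 3 comparisons, ordered in each list by APP/PS1 against WT. All 12 inducible members lie right of 0 in the left panel, Hsph1 lies farthest right of them in the right panel, and the mitochondrial members lie around 0.

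APP/PS1xRIPK1KD was set against APP/PS1 to ask what the Ripk1 alteration adds in amyloid-bearing mice. Most chaperones overlapped between these genotypes, and edgeR called 0 of 67 members, where it called 1 gene (0.00751%). At an unadjusted p under 0.05 it counted 1 member higher and 3 lower, 5.97% of the 67 against 4.78% of all genes (2.44% higher and 2.34% lower). DESeq2 (0.143% of genes called, or 0.19% without the filter) and limma-voom (0%) called 0 members. Libraries did not overlap for 4 members higher, against 5.32% of all genes, and for 4 lower, against 4.66%. Both shares, 5.97% of the 67, are near the background.

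The inducible list had 10 of 12 log2 fold changes below 0, where 50.6% of all genes were, with a median of -0.14 and 0 of 12 without overlap. That median moved with single libraries. It was -0.31 without APP/PS1xRIPK1KD replicate 3, -0.02 without APP/PS1 replicate 2 and 0.00 without APP/PS1xRIPK1KD replicate 1, and -0.38 over replicates 1 and 2, with 5 members lower and 1 higher at an unadjusted p under 0.05, which 9.09% of all genes reached there. Hspa1a stood at 160, 120 and 315 CPM in APP/PS1xRIPK1KD against the 392, 147 and 281 CPM of APP/PS1 given above (-0.46 ± 0.391 SE). Its highest library was replicate 3, and without that library the log2 fold change was -0.96, while without APP/PS1 replicate 1 it was -0.11. Hsph1 was one of the 2 inducible members above 0, at 46.6, 75.9 and 88.2 CPM (0.33 ± 0.225 SE, edgeR adjusted p = 1), and Hspb1 was the other, at 1110, 917 and 1220 CPM.

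The members whose libraries did not overlap, near the background in number, were mostly of low level. Dnaja2 stood at 113, 112 and 102 CPM in APP/PS1xRIPK1KD, below all of APP/PS1 and at the WT level (-0.47 ± 0.169 SE, edgeR adjusted p = 0.98). Dnajc3 stood at 129, 125 and 122 CPM, also below APP/PS1 (-0.20 ± 0.119 SE). Dnajc30 was higher, at 37.6, 29.5 and 37.8 CPM (0.42 ± 0.178 SE, edgeR adjusted p = 0.999). Its mean of 35 CPM was that of WT, whose libraries lay more closely together at 32.8 to 36.6 CPM. The same APP/PS1 libraries enter both comparisons of these 3 genes, so their values do not show a return to the WT level. Dnajc16, a DnaJ protein of the endoplasmic reticulum membrane, stood at 4.08, 8.35 and 5.06 CPM against 14.5, 8.46 and 11.2 CPM in APP/PS1. Dnajc27, a Rab-like GTPase with a J domain, and the nuclear protein Dnajc17 were higher, at 13.5, 15.1 and 11.3 CPM against 7.99 to 10.5 CPM and at 11.5, 10.7 and 11.1 CPM against 6.34 to 9.3 CPM. Hspb6 was the remaining tested member higher without overlap, at 3.81 to 4.41 CPM against 2.86 to 3.69 CPM in APP/PS1. Hspa12a, a relative of Hspa12b, was at 0 or 0.0228 CPM in APP/PS1xRIPK1KD and at 0.186 to 0.881 CPM in APP/PS1, too near 3 counts for a fold change.

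In APP/PS1xRIPK1KD against WT, Hsph1 was the member that stood out, at 46.6, 75.9 and 88.2 CPM against 31.4, 37.2 and 34.4 CPM in WT. The lowest APP/PS1xRIPK1KD library lay above the highest WT library, and the mean was 2.05-fold higher (1.03 ± 0.228 SE, edgeR adjusted p = 0.315). DESeq2 called it (1.04, adjusted p = 0.00997), and limma-voom did not. Of the inducible list, 7 of 12 members did not overlap with APP/PS1xRIPK1KD higher, against 6.05% of all genes, 10 of 12 log2 fold changes were above 0, where 50.6% of all genes were, and the median was 0.45, or 0.26 over replicates 1 and 2. At an unadjusted p under 0.05 edgeR counted 3 of the 12 higher, where 2.97% of all genes were, and the count was 2 with limma-voom or a replicate block and 6 with DESeq2. Hsp90aa1 stood at 304, 357 and 509 CPM (0.64 ± 0.198 SE, edgeR adjusted p = 0.61), Hspa4l at 13.6, 12.6 and 17.1 CPM (0.76 ± 0.34 SE, adjusted p = 0.792) and Dnaja1 at 343, 374 and 451 CPM (0.45 ± 0.208 SE, adjusted p = 0.82). All 3 lay wholly above WT. Hspa1a overlapped WT, and its log2 fold change of 0.64 was 0.15 without APP/PS1xRIPK1KD replicate 3. Dnajb1 again overlapped, at 63.6, 76.5 and 88.3 CPM (0.00 ± 0.175 SE).

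Outside that list, Hsp90ab1 stood at 1140, 1310 and 1680 CPM, above all of WT (0.47 ± 0.152 SE, edgeR adjusted p = 0.647). Dnajc18, a DnaJ protein of the endoplasmic reticulum membrane, stood at 30.4, 37.3 and 30.9 CPM against 20.7, 18.3 and 19.6 CPM in WT (0.75 ± 0.213 SE, adjusted p = 0.563). It was one of 2 endoplasmic reticulum members whose libraries lay wholly above WT, the other being the membrane protein Dnajb14 at 4.74 to 5.53 CPM against 2.42 to 4.54 CPM. Hspa5 overlapped, at 443, 410 and 610 CPM, as did Hsp90b1, at 531, 480 and 544 CPM. Over all members, edgeR called 0 of 67, where it called 5 genes (0.0375%), and counted 6 higher and 1 lower at an unadjusted p under 0.05 (10.4% of the 67 against 6.18% of all genes, 2.97% higher and 3.21% lower). DESeq2 called 1 member, where 0.468% of genes were called, or 0.666% without the filter on low counts, which gave the same member. limma-voom called 0 members and 0.015% of genes. Libraries of 14 members did not overlap with APP/PS1xRIPK1KD higher, 20.9% of the 67 against 6.05% of all genes, and 0 with it lower, against 5.99%. With replicates 1 and 2 alone, 5 members were higher and 0 lower at an unadjusted p under 0.05, where 6.44% of all genes reached it.

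The other genes of the folding machinery were 57 tested genes: heat shock factors and co-chaperones, the cytosolic TRiC chaperonin with prefoldin, and partners in the organelles. In edgeR 0 of these were called in each comparison. Over all 13317 genes tested it called 3, 1 and 5, in the order of the comparisons above. For the 57 genes, calls by DESeq2 and limma-voom are not given here. In APP/PS1 against WT, 4 were higher and 1 lower at an unadjusted p under 0.05 in edgeR (8.77% of the 57 against 6.14% of all genes), and the median was 0.10. Hsf1, which encodes heat shock factor 1, stood at 60.2 to 66.4 CPM in WT, 65.2 to 74.4 CPM in APP/PS1 and 67.1 to 81.8 CPM in APP/PS1xRIPK1KD. Stip1, which bridges HSP70 and HSP90, stood at 63.7, 78.1 and 53.2 CPM in WT, 73.5, 117 and 102 CPM in APP/PS1 and 81.5, 78.9 and 118 CPM in APP/PS1xRIPK1KD. Chordc1, another HSP90 partner, stood at 38.8 to 63.2 CPM in WT against 53.8 to 113 CPM and 64.7 to 93.4 CPM. Bag3, a co-chaperone that heat shock factor 1 also induces, lay on the other side: 112, 110 and 64.3 CPM in WT, 74.8, 59 and 71.5 CPM in APP/PS1 (-0.48 ± 0.209 SE, edgeR adjusted p = 0.795) and 52.7, 72.7 and 66.4 CPM in APP/PS1xRIPK1KD. WT replicates 1 and 2 were high and WT replicate 3 was within the other genotypes.

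The TRiC subunits Cct5 and Cct8 lay above WT in every APP/PS1 library, at 155 to 183 CPM against 130 to 153 CPM and at 158 to 207 CPM against 142 to 145 CPM. They were the 2 of the 57 genes higher without overlap (3.51%), below the 5.43% of all genes, and 1 was lower, against 5.44%. In APP/PS1xRIPK1KD against WT, 9 were higher without overlap (15.8% against 6.05%) and 3 lower, against 5.99%. In APP/PS1xRIPK1KD against APP/PS1, 1 was higher, against 5.32%, and 1 lower, against 4.66%. The phosphatase Ppp5c, which docks on HSP90, lay below WT in both other genotypes (72 to 78.7 CPM in WT, 55.3 to 66.9 CPM and 58 to 63.2 CPM). Of HSP90's steroid receptor partners, Fkbp5 stood at 28.5, 26.9 and 20.9 CPM in WT, 17.6, 35.9 and 15.5 CPM in APP/PS1 and 7.4, 4.02 and 7.39 CPM in APP/PS1xRIPK1KD. The APP/PS1xRIPK1KD libraries lay below all 6 others, with a log2 fold change of -2.02 ± 0.353 SE against WT (edgeR adjusted p = 0.117) and -1.88 ± 0.352 SE against APP/PS1 (edgeR adjusted p = 0.696). Its relative Fkbp4 lay on the other side, at 283, 269 and 326 CPM against 180 to 253 CPM in WT and 186 to 261 CPM in APP/PS1. Hyou1, a large HSP70 relative of the endoplasmic reticulum, stood at 22, 34.4 and 30.1 CPM in APP/PS1xRIPK1KD against 7.99, 20.1 and 11.2 CPM in WT. Cryab, a small heat shock protein outside the symbol rule, stood at 2.49 to 4.6 CPM in APP/PS1xRIPK1KD against 1.56 to 2.16 CPM in WT. In APP/PS1 both overlapped WT, Hyou1 at 13.8, 7.03 and 29.9 CPM and Cryab at 2.05 to 4.21 CPM.

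The inducible members did not share 1 order of libraries. The sum of Hspa1a and Hspa1b was 150, 114 and 134 CPM in WT, 406, 151 and 294 CPM in APP/PS1 and 168, 127 and 324 CPM in APP/PS1xRIPK1KD. The libraries thus fell into a set of 3 at 294 to 406 CPM and a set of 6 at 114 to 168 CPM, unequally spread over the genotypes. Hsph1 in the set of 3 stood at 55.4, 44.4 and 88.2 CPM, and in the set of 6 it reached 75.9 CPM. Hspa8 was highest in APP/PS1 replicate 2 at 3360 CPM, a library of the set of 6. Fos, an immediate early gene induced within minutes by many stimuli, was 255, 220 and 108 CPM in the set of 3 and 28.4 to 72.2 CPM in the set of 6. Fos stood at 34.7, 32.8 and 28.4 CPM in WT, 255, 72.2 and 220 CPM in APP/PS1 and 45.3, 33.6 and 108 CPM in APP/PS1xRIPK1KD. Of 11 partner genes set against the sum, Fos was the one that passed an adjusted p of 0.05 over the 9 libraries (Pearson r = 0.93, exact permutation p = 0.00141, adjusted p = 0.0155; Spearman rho = 0.92, adjusted p = 0.0144). Over the 6 libraries of replicates 1 and 2, r was 0.95 (exact permutation p = 0.0181, adjusted p = 0.199), and without the 2 libraries farthest from the median, APP/PS1 replicate 1 and APP/PS1xRIPK1KD replicate 3, it was 0.92 over 7 (exact permutation p = 0.0165, adjusted p = 0.181). The coefficient kept its size, and over fewer libraries its adjusted p did not pass. The part of genotype and of the gap between the sets in it was not tested. Fos was the only immediate early gene among the 11 partners, the rest being chaperones, and was chosen with earlier results of these data known. The adjustment over 11 does not cover that choice. The other immediate early genes of the list were not set against the sum, so Fos is not shown to be singular among them.

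**Figure D4:**
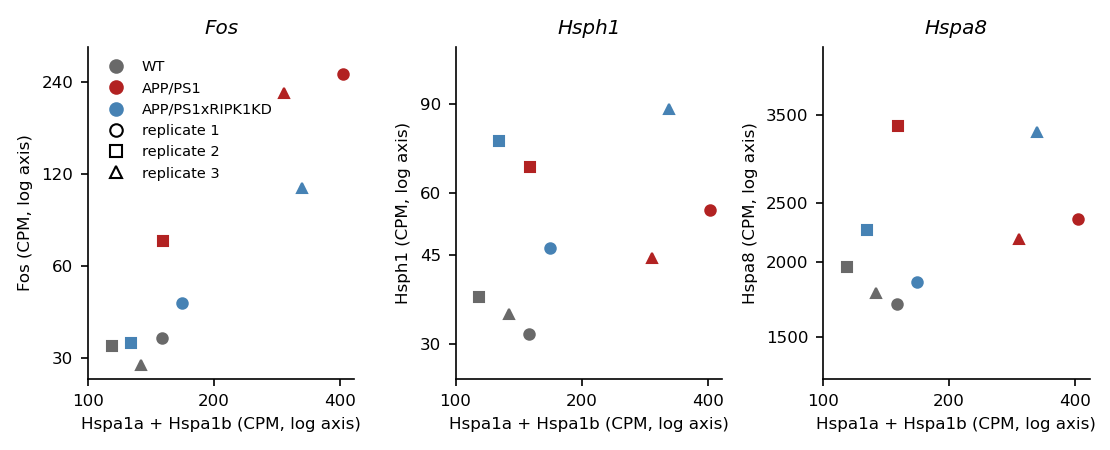
CPM of Fos, Hsph1 and Hspa8 against the sum of Hspa1a and Hspa1b in the 9 libraries, all axes logarithmic, colour for genotype and shape for replicate. The 3 libraries with 294 to 406 CPM of the sum hold the 3 highest Fos values. The highest Hspa8 value lies outside them, in APP/PS1 replicate 2 (3360 CPM), with APP/PS1xRIPK1KD replicate 3, one of them, close behind (3290 CPM).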

How the data were processed

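Poly(A)-primed RNA of 9 sorted cell samples was measured by Smart-seq2 with unstranded paired reads and no molecular identifiers, per the labels' protocols, so PCR copies count as reads, and a floor of 3 counts reflects counting error alone. The authors deposited expected counts per gene symbol, made with Bowtie 0.12.2 and RSEM on mm10 (GRCm38), per the submitters' processing notes. The annotation behind the counts: not given in the sources used here. Values that were not whole made up 28.3% of the matrix. Their deposited comparison of APP/PS1 with WT, made with edgeR 3.10.2, holds log2 fold changes and a p-value with FDR per gene, and was used only for the authors' values.

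Expected counts were rounded and filtered with filterByExpr (minimum count 10, minimum total 15), which kept 13317 of 23420 genes. One edgeR quasi-likelihood model with TMM factors was fitted to all 9 libraries, and each of 3 comparisons was tested 2-sided with Benjamini-Hochberg adjustment over all genes tested. CPM values use TMM-scaled library sizes, and values per kb divide them by the union of exons in GENCODE M21. "Overlap" compares the 3 CPM values of each genotype. Versions were R 4.3.3, edgeR 4.0.16, limma 3.58.1, DESeq2 1.42.0, Python 3.11.15 with numpy 2.4.6, pandas 2.3.3, scipy 1.17.1 and matplotlib 3.10.9. The fit was tested on simulated data. The members, lists and naming rule were chosen with earlier results of these data known. Named were, in each comparison, up to 6 members per direction with the smallest p among those of at least 5 CPM whose libraries did not overlap, a fixed set of 25 members, the 8 highest per length, and 8 fixed pathway genes with the 3 of smallest p. Named outside this rule, after their values were seen, were members given for their spread (Dnajc4, Hspa14, Dnaja4), Dnajc8 for its level in WT, Dnajb14, Dnajb6 and the untested members. Hspbap1 and Hspbp1 were named for the spelling of their symbols. Alternatives were DESeq2, limma-voom, RLE and upper-quartile scaling, omission of Rn45s, no or a stricter filter, a replicate block, 2 genotypes only, replicates 1 and 2 only and leaving out each library, and, added after the data were seen, DESeq2 without the filter and the summed Hspa1a and Hspa1b. The replicate numbers were not treated as pairs, except in the fit with a replicate block. They do follow the split in Xist and Y-linked transcripts given above.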

Additional observations from a re-analysis of the deposited data

How the results depend on the processing

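Of 85 log2 fold changes of named members, followed over 1440 refits, 1434 kept their side of the FDR threshold, 6 became called and 0 reversed while called or beyond its SE in both fits. No member was called in the reported fit, so keeping a side means staying uncalled and does not measure how steady a fold change was. That of Hspa1a in APP/PS1xRIPK1KD against APP/PS1 ran from -0.96 to -0.11 when single libraries were left out. The 6 that became called were Hspa4l and Hsp90aa1 in APP/PS1 against WT and Hsph1 in APP/PS1xRIPK1KD against WT. DESeq2 called 2 and 1 members in those comparisons, and DESeq2 without the filter on low counts, added later, again called 2 and 1, where edgeR called 0; the cause was not tested. Leaving out each library in turn gave 0 to 0 members called in every comparison. Leaving out 1 library leaves an arm of 2, assumed to vary like the others. Same-numbered libraries deviated from their genotype means with correlations of -0.019 to 0.098, and 4 of 9 libraries correlated best with one of their own number; with a replicate block edgeR called 0 members in each comparison. The count of partner genes past an adjusted permutation p of 0.05 with the sum of Hspa1a and Hspa1b was 1 of 11 (Fos) over 9 libraries; it was 0 over replicates 1 and 2, where Fos had r = 0.95 against 0.93, so that count reflects 6 libraries and not a smaller coefficient. It was 0 to 1 when each library was left out, 0 without APP/PS1 replicate 1. Limits are the 3 libraries per genotype, the mismatch of labelled sex in 6 libraries, the difference in mural and choroid plexus transcripts and Rn45s between genotypes, and, for members under 1 CPM, the depth: 3 counts stand for 0.0541 to 0.189 CPM.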
